A study of Mus musculus with 6 samples.

Results

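Extracellular adenosine restrains T cells, and 9 genes that make, sense, carry or remove it were followed in mouse CD8+ T cells exposed to palmitate. The genes were chosen by name, with earlier results of these data known. They are 9 of the 29370 genes in the deposited gene matrix, together with their 65 transcripts among the 116224 in the transcript tables. All 9 were found in the matrix and all 9 passed the filter on low counts. The cells were CD8+ T cells of wild-type (WT) mice, taken from pancreas, lymph nodes and spleen and cultured in complete T cell medium for 48 h before RNA sequencing. There were 3 libraries from cells given 100 µM palmitate, a saturated long-chain fatty acid, and 3 control libraries. The age of the mice, the contents of the control medium and whether libraries came from separate animals or cultures are not given in the sources used here. For that reason p-values set the difference between groups only against the spread of these libraries, and that spread may be technical.

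ATP that leaves a cell is cut on cell surfaces to AMP by CD39, the product of Entpd1, and AMP is cut to adenosine by CD73, the product of Nt5e. CD38 feeds the same pool from NAD through ADP-ribose, from which AMP can be released. Adenosine binds the receptors encoded by Adora2a and Adora2b, which raise cyclic AMP in the cell and restrain T cell activation. It is removed by uptake through the equilibrative carrier ENT1 (Slc29a1), by phosphorylation to AMP by adenosine kinase (Adk), or by deamination to inosine by adenosine deaminase (Ada), which in human cells is held at the surface by CD26, the peptidase encoded by Dpp4.

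Promoter sequences are shown for Nt5e, the gene of the set that passed the test, for Dpp4, which passed when library numbers were used as a block, and for Entpd1, whose reads were divided between transcripts of both of its starts. Each is 300 bases long, from 250 before to 50 after a RefSeq start, in the RefSeq build GRCm38.p6, written 5′ to 3′ on the strand of the gene. Capitals mark matches, on either strand, to the GC box GGGCGG, to the CACCC box CACCC, both of which are bound by SP and KLF factors, and to TGACG, the core of the cyclic AMP response element. Neighbouring GC boxes of Nt5e overlap each other, and no match to one of these motifs overlaps a match to another in the sequences shown.
Nt5e, chr9:88327359-88327658, plus strand: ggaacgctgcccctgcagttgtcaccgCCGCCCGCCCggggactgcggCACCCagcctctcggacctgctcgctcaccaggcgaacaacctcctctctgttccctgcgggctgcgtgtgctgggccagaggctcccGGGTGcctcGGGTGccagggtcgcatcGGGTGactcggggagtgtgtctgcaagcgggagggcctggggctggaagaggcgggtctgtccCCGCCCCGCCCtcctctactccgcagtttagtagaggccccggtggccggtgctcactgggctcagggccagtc
Dpp4, chr2:62412182-62412481, minus strand: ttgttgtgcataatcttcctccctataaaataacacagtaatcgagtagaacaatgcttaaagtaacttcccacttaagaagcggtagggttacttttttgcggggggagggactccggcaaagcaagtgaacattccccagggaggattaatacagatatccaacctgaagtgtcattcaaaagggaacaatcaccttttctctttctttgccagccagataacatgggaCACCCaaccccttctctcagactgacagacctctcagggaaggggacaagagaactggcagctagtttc
Entpd1, upstream start, chr19:40612116-40612415, plus strand: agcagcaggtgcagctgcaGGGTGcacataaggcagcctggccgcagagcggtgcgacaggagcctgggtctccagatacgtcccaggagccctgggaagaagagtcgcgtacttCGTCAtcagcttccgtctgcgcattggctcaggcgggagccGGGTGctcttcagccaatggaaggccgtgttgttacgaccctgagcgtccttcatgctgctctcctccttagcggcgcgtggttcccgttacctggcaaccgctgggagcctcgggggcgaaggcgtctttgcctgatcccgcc
Entpd1, downstream start, chr19:40659520-40659819, plus strand: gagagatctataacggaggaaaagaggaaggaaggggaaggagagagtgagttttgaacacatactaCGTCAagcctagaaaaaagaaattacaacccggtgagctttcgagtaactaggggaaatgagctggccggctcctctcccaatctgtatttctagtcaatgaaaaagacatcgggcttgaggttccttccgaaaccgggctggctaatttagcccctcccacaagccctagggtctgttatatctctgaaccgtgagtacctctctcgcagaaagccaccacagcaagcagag

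The Nt5e window held 4 GC boxes and 4 CACCC boxes, with a GC content of 71.0%. The Dpp4 window held 0 GC boxes and 1 CACCC box at a GC content of 45.3%. Both Entpd1 windows held 1 TGACG, the upstream one with 2 CACCC boxes and a GC content of 64.0%, the downstream one with neither box and a GC content of 48.7%. Among 32851 RefSeq promoter windows of the same length, 35.7% held a GC box, 57.5% a CACCC box and 20.8% a TGACG, and the median GC content was 52.7%. The whole element TGACGTCA had 0 matches in each window shown, and 1.79% of the promoter windows held it. The main transcripts of Dpp4 and Entpd1, Dpp4-201 and Entpd1-201, begin at the starts used here, at 0 bases from them. Nt5e-201 begins 412 bases from the RefSeq start, while Nt5e-202 begins 9 bases from it. A match describes the letters only.

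Nt5e, which encodes CD73, the enzyme that makes adenosine from AMP, was higher with palmitate. It stood at 37.7, 25.6 and 22.3 CPM (counts-per-million, read counts scaled by library size) in palmitate libraries 1 to 3, against 14.9, 7.38 and 10.4 CPM in control libraries 1 to 3. The groups did not overlap, as was so for 42.9% of all genes tested (21.6% with palmitate higher). Library 1 was the highest of its group in both. The mean was 28.5 ± 8.11 CPM in palmitate and 10.9 ± 3.77 CPM in control libraries (SD, n = 3 each). The log2 fold change of palmitate over control was 1.39 ± 0.30 (SE), with an adjusted p = 0.0207 in edgeR's quasi-likelihood test over all genes. Of the 12068 genes tested, 22.9% were called at an adjusted p under 0.05, and 1.23% were called with a rise at least as large as that of Nt5e. The matrix held 99.9% of its transcript reads, 373 to 934 reads in palmitate and 184 to 432 reads in control libraries.

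The call of Nt5e was lost without control library 2 and without control library 3. The adjusted p was 0.0512 without control library 2 and 0.0880 without control library 3, with log2 fold changes of 1.18 and 1.35, and the other 4 fits that left out 1 library kept the call. With no filter on low counts the log2 fold change was 1.38 and the adjusted p = 0.0655. With the library number as a block the log2 fold change was 1.41 ± 0.13 and the adjusted p was 0.00088. Between libraries of the same number, the log2 difference of palmitate minus control was 1.34, 1.79 and 1.1 for numbers 1, 2 and 3.

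CD73, CD39 and CD38 are also carried by B cells, regulatory T cells and myeloid cells, so marker levels are given here. The gene counts summed to 16724588 to 24777611 in palmitate and 26042768 to 29362276 in control libraries. The 6 CD8+ T cell markers were present and all 6 rose, with summed levels of 1360.0 to 1504.0 CPM in palmitate and 860.6 to 1132.0 CPM in control libraries. Of 5 markers of CD4+ and regulatory T cells 3 were tested, and of these 1 rose (Zbtb7b) and 0 fell. The 5 summed to 53.2 to 67.9 CPM in palmitate and 44.6 to 69.5 CPM in control libraries. Most of this sum was Ikzf2, which was not called, at 49.5 to 61.2 CPM in palmitate and 42.65 to 66.7 CPM in control libraries. Cd4 and Foxp3 did not pass the filter on low counts and were not tested. Foxp3 was at 0.40, 0.12 and 0.12 CPM in palmitate libraries, against 0, 0.04 and 0 CPM in control libraries, with 48.5% of its reads in the matrix. Over all its transcripts Foxp3 overlapped between groups, at 0.15, 0.12 and 0.23 TPM (transcripts-per-million, per transcript length) in palmitate libraries, against 0.29, 0.04 and 0.28 TPM in control libraries. Cd4 was at 0.30 to 0.56 CPM in palmitate and 0.12 to 0.24 CPM in control libraries. The 10 B cell and plasma cell markers summed to 264.0 to 286.2 CPM in palmitate and 175.2 to 243.7 CPM in control libraries, with 2 of 7 tested risen (Cd79a and Jchain) and 0 fallen. Most of that sum was Ighm, at 231.0 to 250.1 CPM in palmitate and 156.8 to 227.0 CPM in control libraries. Jchain averaged 9.76 ± 2.64 CPM in palmitate and 1.78 ± 0.65 CPM in control libraries. Its log2 fold change, 2.45 ± 0.31 (edgeR adjusted p = 0.00378), was larger than that of Nt5e, and the call was kept without any 1 library. Cd79a averaged 0.83 ± 0.34 and 0.21 ± 0.07 CPM in the same order (1.95 ± 0.47, edgeR adjusted p = 0.0226). With the block 4 of the 7 rose, Ms4a1 (adjusted p = 0.0173) and Ighm (0.0181) as well. The plasma cell marker Sdc1 went the other way without a call. It stood at 2.70, 3.50 and 3.46 CPM in palmitate libraries, against 3.78, 3.93 and 5.25 CPM in control libraries. Its log2 fold change was −0.43 ± 0.21 (edgeR adjusted p = 0.172, and 0.112 with the block). Derl3, a plasma cell gene whose reads the matrix left out, stood at 2.43, 1.81 and 1.86 TPM in palmitate libraries, against 0.85, 0.65 and 0.76 TPM in control libraries, and rose in the transcript sums (log2 fold change 1.26 ± 0.31, adjusted p = 0.0181), while Tnfrsf17 had no read. The 9 myeloid markers summed to 3.40 to 4.48 CPM in palmitate and 2.61 to 4.27 CPM in control libraries, with C1qa, C1qb and S100a8 at 0. Of the dendritic cell markers 4 were tested and 0 called, and of the NK cell markers 2 were tested and 0 called. The 7 pancreatic markers were too low to test, at most 0.24 CPM in sum. Pecam1, of the endothelial and stromal markers, and Hbb-bs, of the erythroid markers, rose. In bulk RNA fewer cells of a type and less RNA per cell cannot be told apart, and the part of other cells in the Nt5e result was not tested.

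The other 8 genes did not pass the test, so the set had 1 call, a rise, and 0 falls. That is 11.1% of the set beside 22.9% of all genes tested, of which 11.1% of genes were called higher and 11.7% lower. At a p under 0.05 before adjustment, 1 gene was higher and 0 were lower in edgeR, and DESeq2 and limma-voom each called 1 rise and 0 falls. Of all 12068 genes tested, 2249 were higher and 2308 lower at that unadjusted p in edgeR. DESeq2 called 1443 of the 12068 higher and 1746 lower, and limma-voom 1314 higher and 1338 lower. The median log2 fold change was 0.06 over the 9 genes and 0.02 over all genes tested. With the library number as a block 2 of the 9 rose, Nt5e and Dpp4, beside 33.1% of all genes called, 16.5% higher and 16.6% lower.

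**Figure D1:**
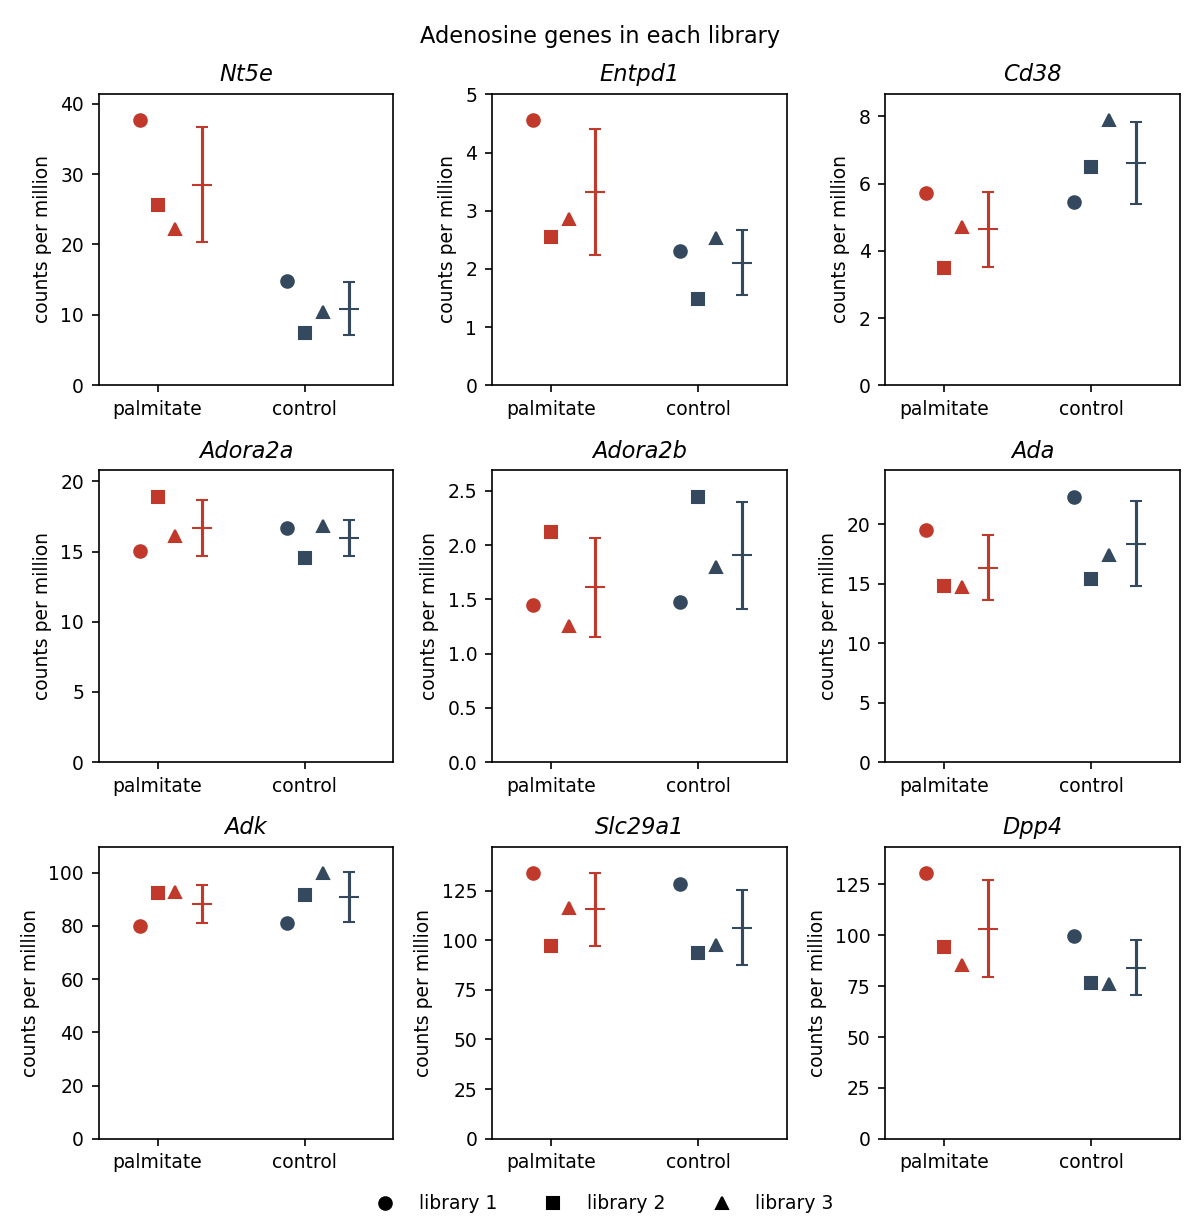
CPM (y axes, linear from 0) of the 9 genes in the 3 palmitate and 3 control libraries, with point shapes for library numbers and a bar for mean ± SD. The palmitate libraries of Nt5e, 22.3 to 37.7 CPM, lie above its control libraries, 7.38 to 14.9 CPM, and those of Entpd1 only just above, 2.56 against 2.54 CPM at the nearest.

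Entpd1, which encodes CD39, the enzyme upstream of CD73, had a value in the same direction that did not pass. It stood at 4.56, 2.56 and 2.86 CPM in palmitate libraries 1 to 3, against 2.31, 1.48 and 2.54 CPM in control libraries 1 to 3. The groups touched without overlapping, with palmitate library 2 just above control library 3. Over all genes tested, 42.9% had groups that did not overlap, 21.6% with palmitate higher. The log2 fold change was 0.66 ± 0.30 (adjusted p = 0.149; 0.0583 with the block). The counts were few, 48 to 113 reads in palmitate and 37 to 72 reads in control libraries.

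Cd38, which encodes an enzyme that consumes NAD, stood at 5.73, 3.50 and 4.71 CPM in palmitate libraries, against 5.47, 6.495 and 7.89 CPM in control libraries. The groups overlapped through palmitate library 1, which lay above control library 1. The log2 fold change was −0.51 ± 0.23 (adjusted p = 0.136; 0.0978 with the block). Across the other settings it ran from −0.70, without palmitate library 1, to −0.35, without palmitate library 2.

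The adenosine receptor genes overlapped between groups. Adora2a, which encodes the receptor of higher affinity for adenosine, stood at 15.01, 18.9 and 16.1 CPM in palmitate libraries, against 16.7, 14.5 and 16.8 CPM in control libraries. Its log2 fold change was 0.06 ± 0.12 (adjusted p = 0.745), with values below 0 without palmitate library 2 (−0.05) and without control library 2 (−0.01). Adora2b, which encodes the receptor of lower affinity, stood at 1.45, 2.12 and 1.25 CPM in palmitate libraries, against 1.48, 2.45 and 1.80 CPM in control libraries. Its log2 fold change was −0.23 ± 0.30 (adjusted p = 0.609), and it rested on 21 to 54 reads in palmitate and 43 to 61 reads in control libraries.

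The genes that take up or convert adenosine also overlapped. Slc29a1, the ENT1 carrier gene, stood at 133.6, 97.0 and 116.2 CPM in palmitate libraries, against 128.1, 93.3 and 97.6 CPM in control libraries (log2 fold change 0.12 ± 0.15, adjusted p = 0.607; −0.0042 without palmitate library 1). Adk, the kinase gene, stood at 80.0, 92.2 and 92.6 CPM in palmitate libraries, against 81.1, 91.7 and 99.7 CPM in control libraries. Its log2 fold change was −0.04 ± 0.10 (adjusted p = 0.78), the smallest in size of the 9, and its sign turned with upper-quartile scaling (0.02). Ada, the deaminase gene, stood at 19.5, 14.8 and 14.7 CPM in palmitate libraries, against 22.3, 15.4 and 17.4 CPM in control libraries (log2 fold change −0.17 ± 0.17, adjusted p = 0.504). Each of the 3 genes had its palmitate and control libraries interleaved. Between libraries of the same number, the log2 differences of Slc29a1 were 0.06, 0.06 and 0.25. Those of Adk were −0.02, 0.008 and −0.11, and those of Ada −0.19, −0.06 and −0.24. With the block the edgeR adjusted p was 0.19 for Slc29a1, 0.656 for Adk and 0.198 for Ada.

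Dpp4, which encodes CD26, passed with the block alone. It stood at 130.4, 94.2 and 85.3 CPM in palmitate libraries 1 to 3, against 99.6, 76.8 and 76.0 CPM in control libraries 1 to 3. Library 1 was the highest of its group in both, so the groups overlapped, but each palmitate library lay above the control library of its number. Those log2 differences were 0.39, 0.30 and 0.17. The log2 fold change was 0.30 ± 0.18 (adjusted p = 0.266), and with the block 0.29 ± 0.07 (adjusted p = 0.0159). Without palmitate library 1 the value was 0.09, and it was 0.58 when transcripts were summed with offsets for their lengths (adjusted p = 0.102).

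**Figure D2:**
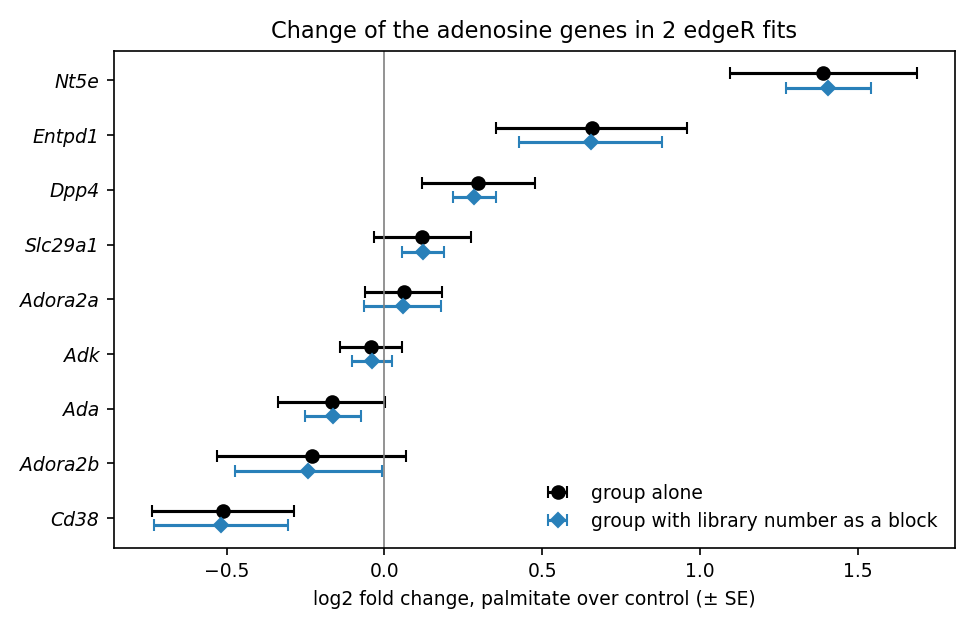
Log2 fold change of palmitate over control (x axis) with its SE for the 9 genes, from edgeR fits with the group alone (circles) and with the library number as a block (diamonds). Nt5e stands at 1.39 and 1.41, while the values of the other 8 lie between −0.52 and 0.66.

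On the scale per transcript length, TPM, Adk and Slc29a1 stood above the other 7 genes in both groups. Adk averaged 122.2 ± 10.7 in palmitate and 118.1 ± 13.5 in control libraries, and Slc29a1 98.6 ± 24.0 TPM in palmitate and 89.7 ± 19.0 TPM in control libraries (SD, n = 3 each). Dpp4 came next, at 43.1 ± 11.5 TPM in palmitate and 27.8 ± 8.38 TPM in control libraries. Ada (10.7 ± 2.35 and 11.8 ± 2.19 TPM) and Adora2a (11.5 ± 1.75 and 10.4 ± 1.02 TPM) did not differ from each other beyond their spread in either group, palmitate given before control.

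Nt5e averaged 9.09 ± 3.40 TPM in palmitate libraries, within the spread of Ada and Adora2a there, and 3.36 ± 1.40 TPM in control libraries, apart from both. Entpd1 averaged 5.41 ± 2.81 TPM in palmitate and 2.47 ± 0.76 TPM in control libraries, Cd38 2.09 ± 0.52 TPM in palmitate and 2.88 ± 0.39 TPM in control libraries. Among the control libraries Nt5e, Cd38 and Entpd1 did not differ beyond their spread. Adora2b was last in both groups, at 1.23 ± 0.34 TPM in palmitate and 1.44 ± 0.38 TPM in control libraries.

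**Figure D3:**
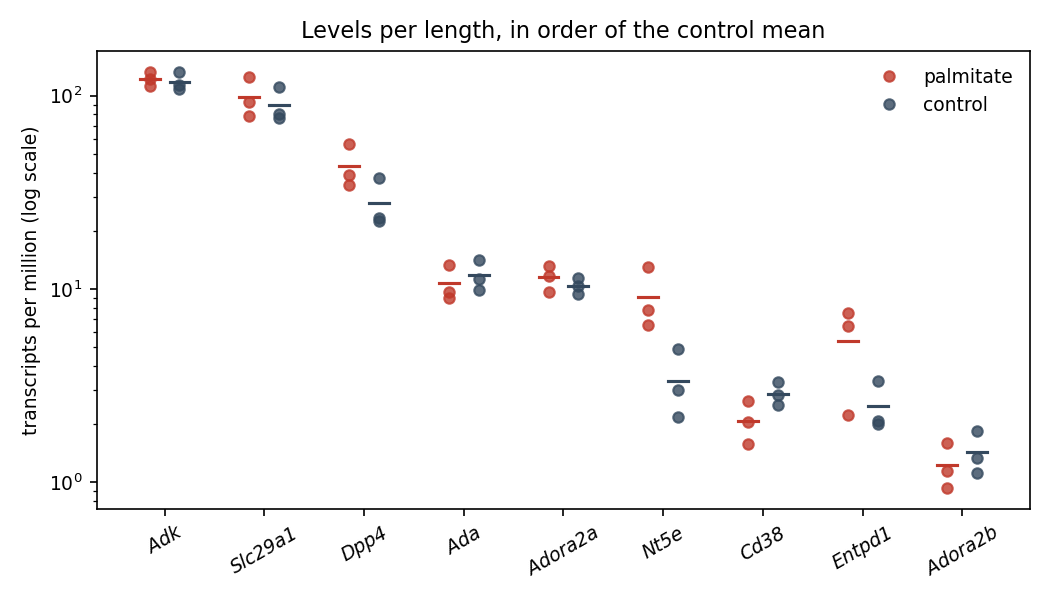
TPM (y axis, log scale) of the 9 genes in each palmitate (left of each pair) and control library, with bars at the group means and genes ordered by the control mean. Adk and Slc29a1 stand near 100 TPM in both groups, and Nt5e is at 6.51 to 12.9 TPM in palmitate and 2.18 to 4.91 TPM in control libraries.

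The transcripts behind these sums were tested one by one on Salmon's estimated reads. With edgeR over 39731 transcripts, 0 were called, although 6297 (15.8%) had an unadjusted p under 0.05, and 1105 of 15441 (7.16%) were called at a minimum mean of 5 CPM. Nt5e-201, the coding transcript, did not pass at a log2 fold change of 1.31 ± 0.27 (adjusted p = 0.1003), and passed at the minimum of 5 CPM at 1.39 (adjusted p = 0.0395). Its estimated reads were 866.8, 614.7 and 356.0 in palmitate libraries, against 405.6, 180.6 and 291.0 in control libraries. It held 94.2% ± 1.417 of the Nt5e reads in palmitate and 96.9% ± 2.86 in control libraries (SD, n = 3 each).

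Most of the other Nt5e reads fell to transcripts annotated with a retained intron. Nt5e-202 held 41.5, 25 and 14.1 estimated reads in palmitate libraries, against 16.4, 2.0 and 0.0 in control libraries. Its share of Nt5e reads was 4.02% ± 0.36 in palmitate and 1.63% ± 1.95 in control libraries, without overlap. Of 28 transcripts with a mean of at least 10 reads, 4 had shares that did not overlap between groups: Nt5e-202, Dpp4-201, Dpp4-202 and Adk-205. Of all 39507 transcripts with that mean, 13.9% had shares without overlap, a share close to that of the 28. Each of these reached a two-sided exact permutation p = 0.1, which is the smallest that 3 against 3 libraries allow, so no share could pass 0.05.

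The Dpp4 shares differed between groups by small amounts. Dpp4-201, the coding transcript, held 93.9% ± 0.99 of the reads in palmitate and 96.0% ± 1.06 in control libraries. Dpp4-202, a processed transcript without a coding sequence, held 0.81% ± 0.18 in palmitate and 0.33% ± 0.09 in control libraries. Adk-205, annotated with a retained intron, held 1.59% ± 0.19 of Adk reads in palmitate and 1.11% ± 0.08 in control libraries.

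Adk reads came mostly from one coding transcript. Adk-201, from the upstream of the 2 RefSeq starts, held 87.3% ± 2.60 in palmitate and 88.2% ± 0.90 in control libraries, and it is the transcript whose reads the matrix carried (87.9% of the Adk reads). Adk-207, from the downstream start, held 5.21% ± 1.72 in palmitate and 5.43% ± 0.23 in control libraries. Entpd1 had too few reads to divide: transcripts of its upstream start held 42.7%, 7.47% and 39.6% of the reads in palmitate libraries 1 to 3, against 10.5%, 52.6% and 7.15% in control libraries 1 to 3. The shares of the starts of Entpd1 thus varied more between libraries of a group than between groups.

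Slc29a1 showed how estimates for single transcripts can differ between libraries by more than the gene sum does. Slc29a1-202 held 50.6% ± 4.52 of the reads in palmitate and 50.6% ± 7.11 in control libraries. Slc29a1-203 had 1109.0, 83.4 and 0.0 estimated reads in palmitate libraries 1 to 3, against 210.2, 0.0 and 0.0 in control libraries 1 to 3. Slc29a1-201 had 0.0, 448.0 and 440.9 reads in palmitate libraries, against 552.2, 500.1 and 825.2 in control libraries. In palmitate library 1, where Slc29a1-203 was high, Slc29a1-201 and Slc29a1-213 were at 0. Salmon divides reads that fit several transcripts, so these splits are uncertain.

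**Figure D4:**
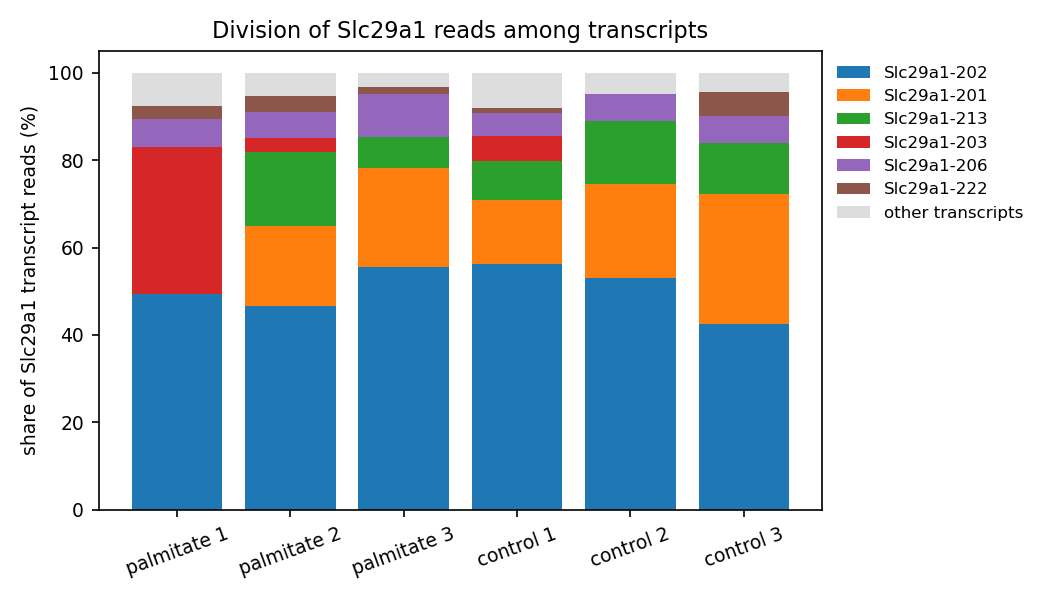
Share of Slc29a1 transcript reads (y axis, percent, stacked to the full total) held by its 6 most abundant transcripts in each palmitate (left) and control (right) library. Slc29a1-202 holds 42.6% to 56.2% in each library, and palmitate library 1 stands apart by its share of Slc29a1-203.

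Of the wider pathway, 102 genes were listed in 7 groups, also with earlier results of these data known. Of these, 100 were in the matrix and 84 were tested. Among the 84, 9 rose and 14 fell (27.4%, beside 22.9% of all genes tested). Their median log2 fold change was 0.05, beside 0.02 over all genes. The count of called genes depended on the libraries: it was 3 without control library 3, 7 without control library 2, 9 without palmitate library 1, 11 without palmitate library 2, 9 without palmitate library 3 and 28 without control library 1. With the block 15 rose and 19 fell, where 33.1% of all genes were called. With upper-quartile scaling 11 rose and 10 fell. For genes below, the number of those 6 fits that kept a call is given.

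In the group of NAD and ADP-ribose enzymes, 1 of 8 tested genes rose and 5 fell, with a median of −0.30. Nmnat1, which makes NAD in the nucleus, fell to 12.2 ± 0.17 CPM in palmitate, against 21.4 ± 0.89 CPM in control libraries (log2 fold change −0.81 ± 0.09, adjusted p = 0.00312, kept in 6 fits). Nampt, the rate-limiting enzyme of NAD salvage, was at 281.0 ± 33.6 CPM in palmitate and 401.4 ± 61.2 CPM in control libraries (−0.52 ± 0.13, kept in 1). Bst1, a relative of Cd38 with ADP-ribosyl cyclase activity, was at 0.51 ± 0.12 CPM in palmitate and 2.21 ± 0.90 CPM in control libraries (−2.08 ± 0.39, kept in 5). The deacetylase gene Sirt1 (−0.39 ± 0.09, kept in 2) and the NAD kinase gene Nadk (−0.21 ± 0.06, kept in 0, adjusted p = 0.11 with upper-quartile scaling) also fell. Art2b, an ADP-ribosyltransferase gene of mouse T cells, rose by 0.85 ± 0.19 (kept in 2), with 28.2% of its reads in the matrix. Nmnat3 (0.06 ± 0.13) and Parp1 (0.07 ± 0.07) did not pass.

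Of 10 other ectonucleotidase and phosphatase genes tested, 1 fell and 0 rose, with 1 rise at an unadjusted p under 0.05 and 0 rises by DESeq2 or limma-voom. Enpp4, of the nucleotide pyrophosphatase family, was at 32.7 ± 3.53 CPM in palmitate and 43.0 ± 2.51 CPM in control libraries (−0.39 ± 0.10, adjusted p = 0.0289, kept in 2). The relatives of Entpd1 with the highest counts did not pass: Entpd4 (0.06 ± 0.07), Entpd5 (0.38 ± 0.18; adjusted p = 0.0216 with the block) and Entpd6 (0.12 ± 0.10). With the block 2 genes of the group rose and 2 fell.

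Of 5 other receptor and carrier genes tested, 1 rose and 1 fell (40.0%, beside 22.9% of all genes tested). Slc28a2, which encodes the sodium-driven purine nucleoside carrier CNT2, was at 54.3 ± 11.8 CPM in palmitate and 34.0 ± 5.97 CPM in control libraries (0.68 ± 0.18, adjusted p = 0.0339, kept in 2). Slc29a2, the ENT2 carrier gene, was at 0, 0.67 and 0 CPM in palmitate libraries, against 2.75, 2.25 and 2.33 CPM in control libraries. The matrix held 24.5% of its reads, and its call there (−3.30 ± 0.96, adjusted p = 0.0495) was kept in 1 fit and lost with the block (0.0965) and with DESeq2 (0.159). Over all its transcripts the log2 fold change was −0.54 (adjusted p = 0.0409), or −0.51 with length offsets (adjusted p = 0.16). Slc29a3 (0.18 ± 0.13) and Slc28a3 (−0.01 ± 0.29) did not pass. Adora3, which encodes a receptor that lowers cyclic AMP, did not pass in the matrix (−0.06 ± 0.50), which held 1.44% of its reads. Over all its transcripts it was called lower, at −1.11 (adjusted p = 0.00216; −1.10 and 0.00336 with length offsets), and it averaged 17.1 ± 3.73 TPM in palmitate and 35.4 ± 2.19 TPM in control libraries.

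Of 22 salvage and AMP enzyme genes tested, 3 rose and 3 fell (27.3%, beside 22.9% of all genes tested). The genes that rose had low counts: the AMP deaminase genes Ampd1 (0.64 ± 0.15 CPM in palmitate and 0.19 ± 0.08 CPM in control libraries, kept in 0) and Ampd3 (0.58 ± 0.15 and 0.08 ± 0.09 CPM in the same order, kept in 1), and the adenylate kinase gene Ak1 (1.65 ± 0.61 and 0.40 ± 0.21 CPM in the same order, kept in 3). Hprt, which salvages hypoxanthine, fell by 0.30 (SE 0.09, kept in 1), the deoxynucleoside kinase gene Dck fell by 0.31 (SE 0.09, kept in 2), and Ahcyl1, a relative of adenosylhomocysteinase, fell by 0.36 (SE 0.10, kept in 1). Ahcy itself (−0.04 ± 0.08) and Ahcyl2 (−0.17 ± 0.06) did not pass. Pnp, which splits the inosine that Ada makes, was in the transcript tables but not in the gene matrix used here, with a log2 fold change of −0.44 ± 0.07 in the transcript sums (adjusted p = 0.00321).

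Of 9 genes of ATP receptors and release tested, 1 fell and 0 rose (11.1%, beside 22.9% of all genes tested). At an unadjusted p under 0.05, by DESeq2 or by limma-voom, 0 rose. P2rx4, an ATP-gated channel gene, fell to 17.1 ± 2.62 CPM in palmitate, against 32.6 ± 3.23 CPM in control libraries (−0.93 ± 0.13, adjusted p = 0.00489, kept in 6). The lysophospholipid receptor gene P2ry10 (0.03 ± 0.16), the ATP release channel gene Panx1 (0.05 ± 0.12) and the vesicular nucleotide carrier gene Slc17a9 (0.25 ± 0.13) did not pass.

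Cyclic AMP signalling is the pathway of the receptors encoded by Adora2a and Adora2b. Of 23 of its genes tested, 4 rose and 3 fell (30.4%, beside 22.9% of all genes tested). With the block 8 rose and 4 fell, where 33.1% of all genes were called. Ptger2, the gene of the prostaglandin E2 receptor EP2, which raises cyclic AMP as the adenosine receptors do, was at 19.2 ± 1.72 CPM in palmitate and 11.0 ± 0.95 CPM in control libraries (0.81 ± 0.12, adjusted p = 0.00515, kept in 6). Gnas, the stimulatory G protein gene, rose by 0.31 ± 0.07 (kept in 2), the CREB coactivator gene Crtc3 by 0.46 ± 0.09 (kept in 5) and the phosphodiesterase gene Pde3b by 0.24 ± 0.07 (kept in 1). Pde7a, another phosphodiesterase gene, fell by 0.48 (SE 0.11, kept in 3), the protein kinase A subunit gene Prkar2a fell by 0.36 (SE 0.08, kept in 2) and Atf1, of the CREB family, fell by 0.37 (SE 0.08, kept in 5). Adcy7 (0.30 ± 0.15; adjusted p = 0.0324 with the block), Prkar1a (0.10 ± 0.08) and Creb1 (0.03 ± 0.11) did not pass.

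Of 7 tested relatives of Dpp4, 0 passed, though 2 had lower levels at an unadjusted p under 0.05, 1 was called lower by DESeq2 and 0 were called by limma-voom. Log2 fold changes were −0.25 ± 0.08 for Prep (adjusted p = 0.0529; 0.0155 under the block), −0.18 ± 0.08 for Dpp3 and 0.0028 ± 0.0717 for Dpp8.

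**Figure D5:**
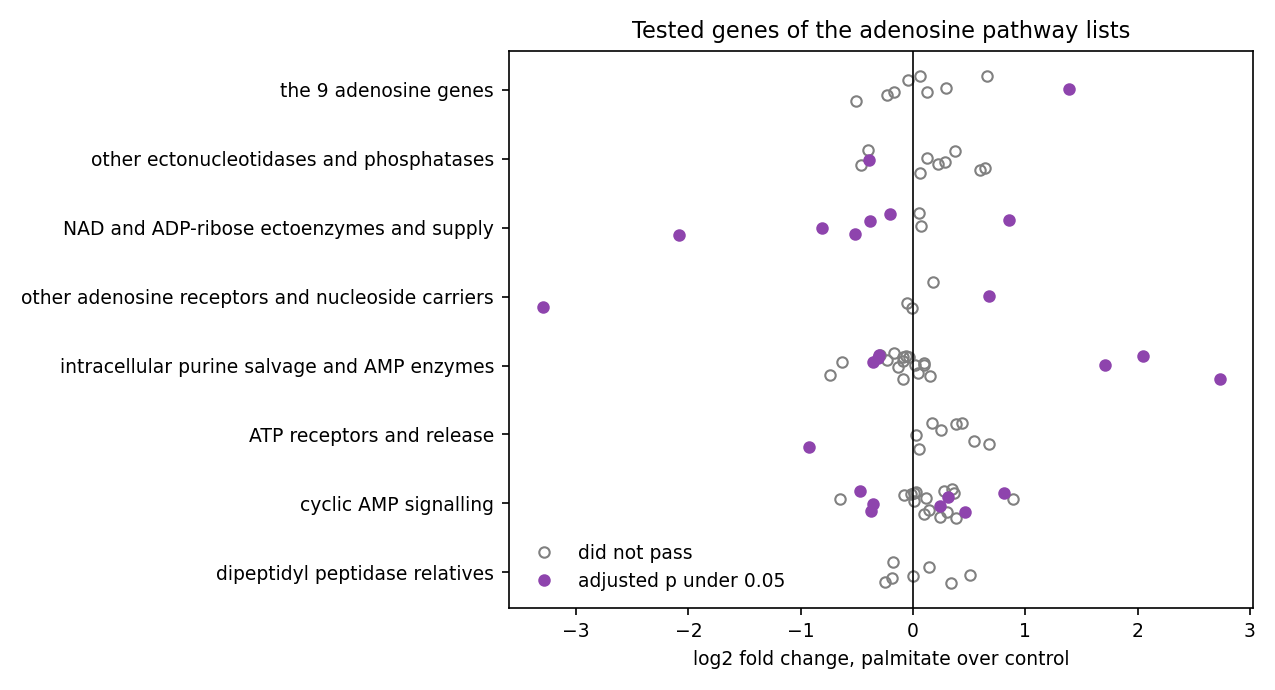
Log2 fold change of palmitate over control (x axis) of each tested gene of the 9 adenosine genes and of the 7 other groups (rows), with filled points for an adjusted p under 0.05 in edgeR and open points for the rest. Nt5e, at 1.39, is the filled point among the 9, and the NAD group has 6 filled points of 8.

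The genes whose log2 CPM followed that of Nt5e most closely over the 6 libraries were Fchsd1, Hdhd5, Apol7e, Setd3 and Plcb2, with Pearson's r of 0.997 to 0.998. The 6 points are the same libraries for every gene and fall into 2 groups, so a difference between groups enters each r. Their log2 fold changes were 0.60 ± 0.18 for Fchsd1, 0.42 ± 0.11 for Hdhd5, 1.08 ± 0.22 for Apol7e and 0.71 ± 0.16 for Plcb2, which were called, and 0.07 ± 0.06 for Setd3, which was not. Within the set of 9, r with Nt5e was 0.88 for Entpd1, 0.82 for Dpp4 and 0.62 for Slc29a1. It was 0.25 for Adora2a, 0.10 for Ada, −0.50 for Adk, −0.56 for Adora2b and −0.61 for Cd38.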

How the data were processed

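RNA was sequenced from 3 palmitate and 3 control libraries. Per the labels' protocols, RNeasy columns gave the RNA and a SMARTER kit the libraries. Among the tools in the submitters' processing notes are Salmon 1.10.0, Trim Galore 0.6.10 and DESeq 1.42.0, with GRCm39 as the build. Strand settings and the map of transcripts to genes are not given in the sources used here. Counts per gene, as whole numbers, form the matrix that the authors deposited; for each library they deposited a Salmon table with expected counts per transcript (rounded here), TPM and effective lengths (another value, in bases); 0 columns of the matrix were unused and 0 entries named no gene.

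Symbols came from a table of gene names and transcripts from GENCODE M21, which named 29087 of 29370 genes and matched 114857 of 116224 transcripts (98.82%), with 99.45% to 99.49% of reads. That annotation and the RefSeq promoters are of GRCm38, so their coordinates are used only with each other; 8 of the 9 genes had a promoter there.

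The gene test was that of edgeR 4.0.16 in R 4.3.3 (its filter on low counts, TMM scaling, robust quasi-likelihood fit, two-sided test, Benjamini-Hochberg adjustment over all 12068 genes, threshold 0.05), with the group as the single term. CPM use TMM-scaled library sizes, and SE is the log2 fold change divided by the root of the test's F. Adjusted p-values are of this test where no other is given. The fits were tested on simulated data. Alternatives were upper-quartile and RLE scaling, no filter, DESeq2 1.42.0, limma-voom (limma 3.58.1), a minimum mean of 5 CPM, the library number as a block, transcript sums with and without length offsets, and leaving out each library. Sums of transcripts differ from the matrix where part of a gene's reads was not carried there, and the share is given where it is low.

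The titles number the libraries 1 to 3 in each group. Libraries that share a number deviated together from their group means (r = 0.23, 0.13 and 0.15, each over 0.1, against −0.19 to 0.06 for unlike numbers). The sources used here do not state that the numbers pair libraries. The main test therefore had the group alone, and the block was an alternative. Libraries of a group differed by more than sampling noise (chi-square per gene 11.5 to 37.6), so no library was taken as a duplicate of another. Each was counted as 1 replicate, although that difference cannot show that libraries came from separate animals or cultures.

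The genes and lists were chosen with earlier results of these data known. Named were the 9 genes, their transcripts with a mean of 10 reads or more, every called gene of the 7 lists, up to 3 uncalled genes a list with the highest CPM, and 5 genes most like Nt5e among genes whose log2 CPM averaged at least 2. A gene that this rule names is not reported here. Of 102 listed genes, Art2a and Pnp were not matched in the matrix. Transcripts were tested on rounded estimated counts without the uncertainty of dividing reads.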

Additional observations from a re-analysis of the deposited data

How the results depend on the processing

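Over all genes the count of calls, 2759, stayed within 1.5 times under the scalings, filters, tools, block and transcript sums (2492 to 3993), and ran from 690 to 3433 when 1 library was left out. With upper-quartile scaling 61.1% of calls were higher, against 48.7% with TMM. The count of calls among the 9 adenosine genes, 1 (Nt5e), was 0 with no filter on low counts and 2 with the replicate block, and 0 to 1 when 1 library was left out. For the wider pathway the count was 23, from 17 to 34 under the other settings and 3 to 28 when 1 library was left out. Transcript calls were 0, and 1105 at a minimum mean of 5 CPM, which tests fewer transcripts; they were 0 with RLE scaling, with the replicate block and without any 1 library.

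Of the log2 fold changes of the 9 genes under these alternatives, 123 kept direction and side of the threshold, 3 lost the call, 1 gained it and 6 turned sign; of 43 pathway genes, 499, 98, 10 and 27. All that turned sign were uncalled. With upper-quartile scaling the values were 0.017 (Adk), 0.0054 (Adora3), 0.0501 (Slc28a3) and 0.0171 (Ahcy); with length offsets −0.13 (Parp1); for Adora3 0.11 with limma-voom and 0.0256 with the replicate block; for Dpp8 −0.0043 with RLE scaling, −0.0076 with no filter on low counts and −0.0041 with DESeq2. When 1 library was left out, the ranges spanned 0 for Adora2a (−0.049 to 0.13), Adk (−0.12 to 0.0266), Slc29a1 (−0.0042 to 0.27), Nmnat3 (−0.0186 to 0.14), Adora3 (−0.45 to 0.24), Slc28a3 (−0.26 to 0.18), Ahcy (−0.0794 to 0.0125), P2ry10 (−0.13 to 0.13), Panx1 (−0.0679 to 0.13), Creb1 (−0.11 to 0.0929) and Dpp8 (−0.0521 to 0.0376). The cause of these differences was not tested. Within the 9 genes the block changed no call but that of Dpp4. Entpd1, Adora2b and Cd38 had at most 224 reads in any library; what that depth could have shown was not tested.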
